A study of Homo sapiens with 8 samples.

Results

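RACK1 is a beta-propeller protein of the small ribosomal subunit that sits near the mRNA exit channel and takes part in signalling and in the handling of stalled or collided ribosomes. The study knocked down RACK1 in OVCAR3, a long-established line of human ovarian carcinoma cells, and put back either the wild-type protein (RACK1-WT) or a protein whose sites of mono-ADP-ribosylation were mutated (RACK1-Mut). A separate experiment transfected OVCAR3 cells with a control siRNA (siControl) or an siRNA against OARD1, which encodes the ADP-ribose hydrolase TARG1 (siTARG1). The RACK1-WT and siControl libraries are the reference groups of these experiments. Both were compared here by their sample titles, with 2 ribosome profiling libraries in each. All gene regions with at least 10 coding footprints summed over these 4 libraries were included, which gave 12532 of 20165 regions (62.1%).

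RACK1-WT cells carried a doxycycline-inducible lentiviral shRNA against RACK1 and an inducible cDNA of HA-tagged RACK1, had been selected with puromycin and G418, and received 1 µg/ml doxycycline for 48 h. The selection antibiotics were left out when cells were plated for the experiment. siControl cells were transfected with 30 nM control siRNA and harvested after 48 h, and the labels give no doxycycline for them. The number of clones behind the RACK1-WT line is not given in the sources used here. The alignment names in the file headers also put the RACK1 and siRNA libraries in separate sets. Vector, shRNA, doxycycline, selection, transfection and library set therefore all follow the same split, and their contributions cannot be told apart.

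Ribosome profiling counts the short mRNA fragments that a ribosome protects from RNase. Footprints on a coding sequence rise with the amount of an mRNA and with the number of ribosomes on each copy. RNA-seq was not analysed here, so these cannot be told apart in any difference given below. OVCAR3 is used as a model of high-grade serous carcinoma, a tumour of Müllerian type epithelium that makes PAX8, a lineage transcription factor, and MUC16, the mucin that carries the CA125 antigen.

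The wild-type cDNA keeps the codons that RACK1-Mut changes, and a window with neighbouring changed codons is shown because it holds part of the designed difference between the RACK1 lines. Capitals mark the changed codons in the reference transcript ENST00000512805 (GRCh37, minus strand, 5′ to 3′). The window covers coding bases 418 to 447 and lies in 2 exons, at chr5:180666565-180666582 and chr5:180668492-180668503.
RACK1 window: tacactgtccagGATGAGagccactcagag

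The total of coding footprints was 6604190 and 6174010 for RACK1-WT, and 4207939 and 3100947 for siControl. Exon counts made up 48.6% and 52.5% of the alignments in RACK1-WT and 41.4% and 28.8% in siControl. Replicates differed by more than counting noise, with a chi-square per region of 3.16 for RACK1-WT and 2.56 for siControl, against 35.9 to 45.8 for libraries of different groups. The labels do not say whether replicates were separate cultures, but per the methods the sequencing experiments were repeated on independent biological samples. The p-values measure the spread between these libraries. PAX8, MUC16 and RACK1 were read in all 4 libraries. Of the genes that define other cell types, CDH5 (endothelium) and CD3E, CD3D, MS4A1, LYZ, ITGAM and NKG7 (leukocytes) had no count in any of the 4, whereas VWF (endothelium) had 40 counts over the 4 and CD68 (leukocytes) 179, and KDR, CD14 and HLA-DRA, given with their lists, were also read.

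RACK1 coding footprints were higher in RACK1-WT than in siControl, whereas footprints on the RACK1 5′ UTR were far lower. The coding counts were 30190 and 28876 in RACK1-WT and 14017 and 10930 in siControl, and the 5′ UTR counts were 30 and 33 against 260 and 238. After scaling by DESeq2 size factors, the coding level was 21975 and 22137 in RACK1-WT and 15977 and 16911 in siControl, so the groups did not overlap. The difference was 0.42 ± 0.07 (SE) on the log2 scale (DESeq2 Wald test, adjusted p = 2.4e-09). RACK1 had 1.07 ± 0.105 (SD, n = 2) 5′ UTR footprints for every 1000 coding footprints in RACK1-WT and 20.2 ± 2.28 (SD, n = 2) in siControl, which is 18.9-fold lower in RACK1-WT. Over all regions the same ratio was 43.6 and 44.4 in RACK1-WT and 41.8 and 46.1 in siControl. The gene lies at chr5:180663897-180675096 on the minus strand. Per the methods, the vector cDNA was amplified with a forward primer whose RACK1 part begins at the start codon.

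**Figure D1:**
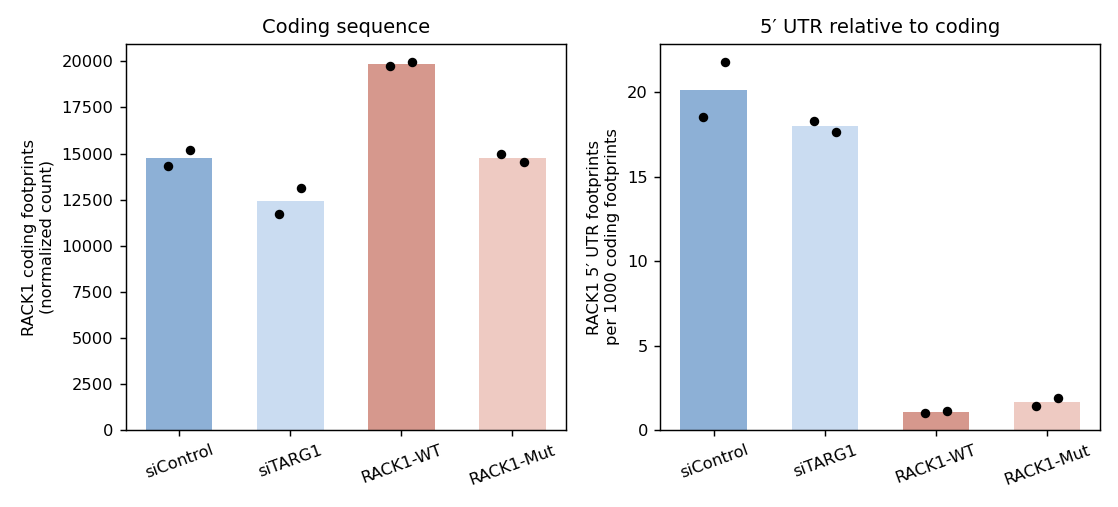
RACK1 footprints in the 4 groups, as the normalized coding count (left, scaled over all 8 libraries) and as 5′ UTR footprints for every 1000 coding footprints (right). Bars are means of 2 libraries and points are libraries, and the right panel shows 0.994 to 1.91 in the RACK1-WT and RACK1-Mut libraries against 17.7 to 21.8 in the siControl and siTARG1 libraries.

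RACK1 was the only call when each region's 5′ UTR footprints were tested against its coding footprints. Of the 12532 regions, 4470 (35.7%) had at least 20 counts on the 5′ UTR and were tested, and 1 (0.0224%) was called. The RACK1 interaction was −4.24 ± 0.50 (SE) on the log2 scale (DESeq2, adjusted p = 2.1e-13). At an unadjusted p under 0.05 there were 136 regions. The RACK1-Mut libraries, which carry the same shRNA and vector, had 21 and 25 counts on the RACK1 5′ UTR, and the siTARG1 libraries had 221 and 177.

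Both groups shared most of their highest coding levels. Levels were set as coding counts per kilobase, scaled to the same total of 1e6 in each library and written as per 1e6. Of the 100 regions with the highest level in each group, 80 were shared (80%), and of the 500 highest, 442 were shared (88.4%). RPS16, a protein of the small ribosomal subunit, had the highest level of any region with 1 symbol, at 9986 ± 135 (SD, n = 2) per 1e6 in RACK1-WT and 12803 ± 350 in siControl. SLPI, a secreted protease inhibitor of mucosal epithelium, was at 7099 ± 242 and 8041 ± 26.4. The glycolytic enzyme GAPDH was at 5385 ± 374 and 5682 ± 33.7, and the actin-binding peptide TMSB10 at 5121 ± 275 and 5251 ± 466. The histone genes H4C14 and H4C15 hold the same reads and cannot be separated.

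An equivalence test asked which regions differed by less than 0.5 on the log2 scale. It called 1375 regions (11%) alike, among them 100 that also differed from 0. GAPDH differed by −0.08 with a 95% interval of −0.22 to 0.06, and the tubulin TUBA1B by −0.08. The lysosomal protein PSAP differed by −0.03. The epithelial keratin KRT8 was alike in this sense at −0.24, as were the complement protein C3 at 0.23 and the small heat shock protein HSPB1 at 0.12. Of the 500 regions with the highest levels, 258 were alike, 281 were called different and 37 lay beyond a log2 difference of 1. A total of 7456 regions were called neither alike nor different.

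The groups nevertheless differed at many regions. DESeq2 called 3801 of the 12532 regions (30.3%), of which 2000 were higher in RACK1-WT (16%) and 1801 lower (14.4%). The groups did not overlap at 72.3% of regions. Among 7006 regions whose mean normalized count was 100 or more, the median absolute difference was 0.33 on the log2 scale, 68.6% lay within 0.5 and 9.42% lay beyond 1. A test against a log2 difference of 1 called 389 regions (3.1%), of which 253 were higher (2.02%) and 136 lower (1.09%). With a library left out, 2007 regions were called without siControl replicate 1, 2302 without siControl replicate 2, 1477 without RACK1-WT replicate 1 and 1550 without RACK1-WT replicate 2. The lone library of a group is then assumed to vary like the other group.

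**Figure D2:**
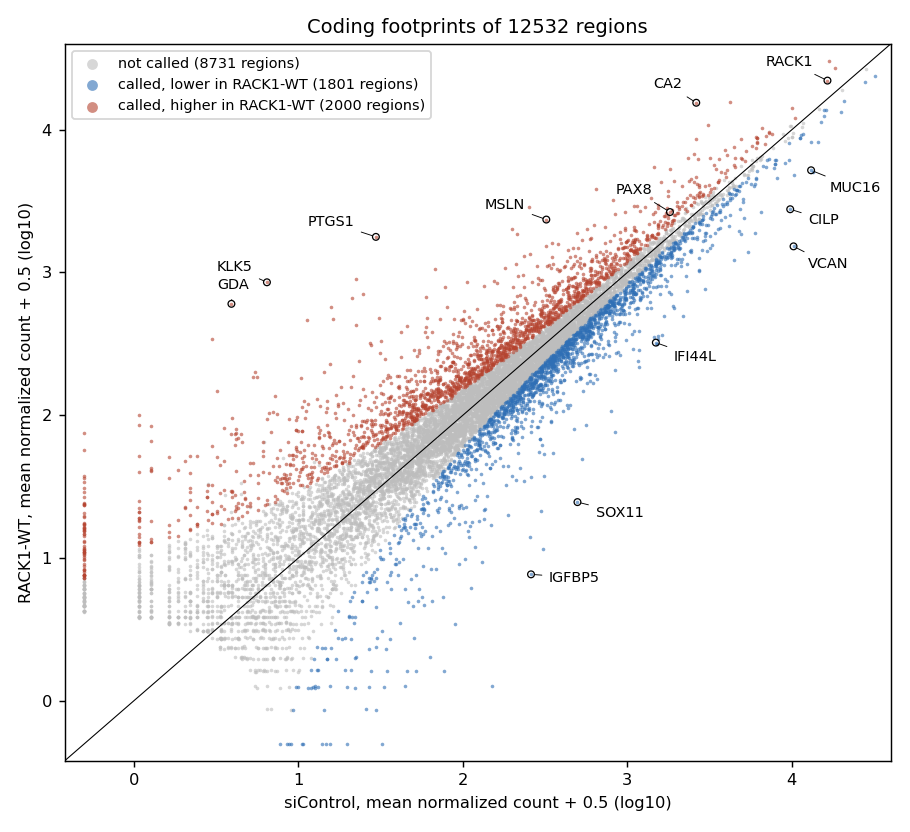
Each point is a region, with the mean normalized count of siControl (x axis) and RACK1-WT (y axis), both plus 0.5 and as log10. Red regions (2000) were called higher in RACK1-WT and blue regions (1801) lower, the line marks equal counts, and some named genes are circled.

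The named genes with the largest rises had few counts in siControl. KLK5, a secreted serine protease, had 839 and 867 normalized counts in RACK1-WT and 5.7 and 6.19 in siControl (7.17 ± 0.50 on the log2 scale, DESeq2 adjusted p = 1.3e-44). SPOCK1, a matrix proteoglycan, had 330.5 and 351 against 3.42 and 1.55 (7.02 ± 0.75). GDA, which deaminates guanine, had 615 and 589.5 against 6.84 and 0, so its siControl libraries were at or near the lower limit of counting. Its log2 difference of 7.37 ± 1.17 ran from 6.45 to 11.04 with a library left out, and the call was lost without either RACK1-WT library. PTGS1, the constitutive cyclooxygenase, had 1814 and 1734 against 31.9 and 26.3 (5.91 ± 0.24, adjusted p = 4.6e-132). NOS1, a nitric oxide synthase, had 479 and 447 against 9.12 and 12.4 (5.46 ± 0.40). The rule that named these genes, and those that follow for their falls or small p, required groups that do not overlap, as 72.3% of all regions had.

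The smallest adjusted p among the rises belonged to abundant genes. CA2, a cytosolic carbonic anhydrase, had 15435 and 15428 normalized counts in RACK1-WT and 2683 and 2559 in siControl (2.56 ± 0.07, adjusted p = 4.6e-284). LTBP1, which anchors latent TGF-beta in the matrix, had 3028 and 2739 against 266 and 239.8 (3.51 ± 0.12). SPON1, a secreted matrix protein, had 3787 and 3941 against 637 and 648 (2.59 ± 0.09). These genes were chosen for their small p, which rests on replicates that lie close together.

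The genes named for the largest falls or for the smallest p among the falls had these values. IGFBP5, a secreted binder of insulin-like growth factors, had 3.64 and 10.7 normalized counts in RACK1-WT and 247 and 271 in siControl (−5.19 ± 0.40, adjusted p = 1.5e-35). EPHA3, a receptor tyrosine kinase, had 13.8 and 8.43 against 271 and 342 (−4.77 ± 0.34). SOX11, a developmental transcription factor, had 29.1 and 19.2 against 523 and 470.4 (−4.36 ± 0.25). FFAR4, a receptor for long-chain fatty acids, had 11.6 and 15.3 against 237 and 277 (−4.25 ± 0.33). VCAN, a large matrix proteoglycan, had 1676 and 1369 against 10134 and 10322 (−2.75 ± 0.09, adjusted p = 1.5e-195). The cartilage matrix protein CILP had 2724 and 2816 against 9744 and 9782 (−1.82 ± 0.07), and the guidance ligand SLIT2 had 1257 and 1194 against 4525 and 4335 (−1.85 ± 0.08).

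Of 21 Müllerian and ovarian carcinoma markers tested, 11 were higher in RACK1-WT and 6 lower (81% called, beside 30.3% of all regions). Their median was 0.35 on the log2 scale against 0.01 over all regions. MUC16 had 6101 and 4285 normalized counts in RACK1-WT and 13671 and 12486 in siControl (−1.33 ± 0.26, adjusted p = 3.5e-06). PAX8 had 2518 and 2777 against 1856 and 1772 (0.54 ± 0.09, adjusted p = 2.3e-08). Both defining markers were thus read in every library, and the list moved in both directions. MSLN, a surface antigen of serous carcinoma, had 2245 and 2446 against 325 and 317 (2.87 ± 0.11), and the membrane mucin MUC4 had 231 and 222 against 11.4 and 18.6 (3.96 ± 0.38). CDH6, a cadherin of ovarian and kidney tumours, had 4142 and 4120.5 against 5876 and 6069.8 (−0.53 ± 0.07). The summed level of these markers was 18057 and 18108 per 1e6 in RACK1-WT and 18240 and 18293 in siControl.

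Of 10 fibroblast and mesenchymal markers tested, 2 were higher and 4 lower (60% called, beside 30.3% of all regions). Their summed level was 214 and 202 per 1e6 in RACK1-WT against 479 and 465 in siControl. FN1, the matrix protein fibronectin, had 229 and 202 normalized counts against 1207 and 1143 (−2.45 ± 0.13), and COL1A1 had 165 and 177 against 98 and 95.9 (0.82 ± 0.25, adjusted p = 0.0046). COL1A1 was not called with the replicate block (adjusted p = 0.064) or without any 1 of the 4 libraries (0.076 to 0.28). ZEB1, ZEB2 and SNAI2 had no count in the 4 libraries. TWIST1, another transcription factor of the list, had 59 and 78 counts in RACK1-WT and 1 and 0 in siControl and was called higher (DESeq2 adjusted p = 0.00016). Of 2 endothelial markers tested 1 was higher (50% called), and of 3 leukocyte markers 2 were higher (66.7% called). KDR had 67 and 64 counts in RACK1-WT and 10 and 4 in siControl, CD14 had 45 and 50 against 6 and 5, and HLA-DRA had 51 and 64 against 6 and 11. The endothelial and leukocyte lists had summed levels of at most 3.3 and 26.6 per 1e6. None of these leukocyte genes was called without siControl replicate 1 or without either RACK1-WT library, and the endothelial call was lost without either RACK1-WT library.

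Genes of the mitochondrial genome, which encodes core subunits of the respiratory chain, were lower in RACK1-WT at 12 of 13. None was higher (92.3% called, beside 30.3% of all regions), and the median was −1.59. MT-CO2, a subunit of cytochrome c oxidase, had 263 and 460.0 normalized counts in RACK1-WT and 1562 and 1680.3 in siControl (−2.17 ± 0.39, adjusted p = 4.7e-07). MT-CO1, the catalytic subunit of that oxidase, had 946 and 1839 against 6287 and 4558 (95% interval of the log2 difference −2.97 to −0.95, adjusted p = 0.00094). Without siControl replicate 1, MT-CO1 was not called (adjusted p = 0.13). MT-ND6, on the other strand, differed by −0.17 and was not called. RACK1-WT replicate 1 was below replicate 2 at each of the 3 genes just given. The 12 calls became 7 without siControl replicate 1, 9 without siControl replicate 2, 10 without RACK1-WT replicate 1 and 12 without RACK1-WT replicate 2.

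Of 44 interferon-stimulated genes, 39 were lower in RACK1-WT and none was higher (88.6% called), with a median of −1.03. IFI44L had 358 and 286 normalized counts in RACK1-WT and 1578 and 1400.3 in siControl (−2.21 ± 0.13, adjusted p = 3.5e-63). IFIT1, which binds RNA lacking a host cap, had 874 and 668 against 3073 and 2842 (−1.94 ± 0.20). PARP14, an interferon-responsive mono-ADP-ribosyltransferase, had 1418 and 1399 against 3334 and 2722 (−1.11 ± 0.10, adjusted p = 1.3e-25). XAF1, IRF1, OAS2, IFITM3 and IFI27 did not pass the test. Of 21 antigen presentation genes, which interferon also induces, 8 were higher (38.1%, beside 30.3% called over all regions), none was lower and 13 did not pass the test, with a median of 0.33. Among them HLA-C had 2680.0 and 3017 against 1835 and 1637 (0.71 ± 0.10), and PSMB9, an immunoproteasome subunit, differed by 0.72 ± 0.26 (adjusted p = 0.023, and 0.15 with the replicate block). With a library left out, 32 to 38 of the interferon-stimulated genes were called. The 8 antigen presentation calls became 5 without siControl replicate 1, 4 without siControl replicate 2, 4 without RACK1-WT replicate 1 and 3 without RACK1-WT replicate 2.

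**Figure D3:**
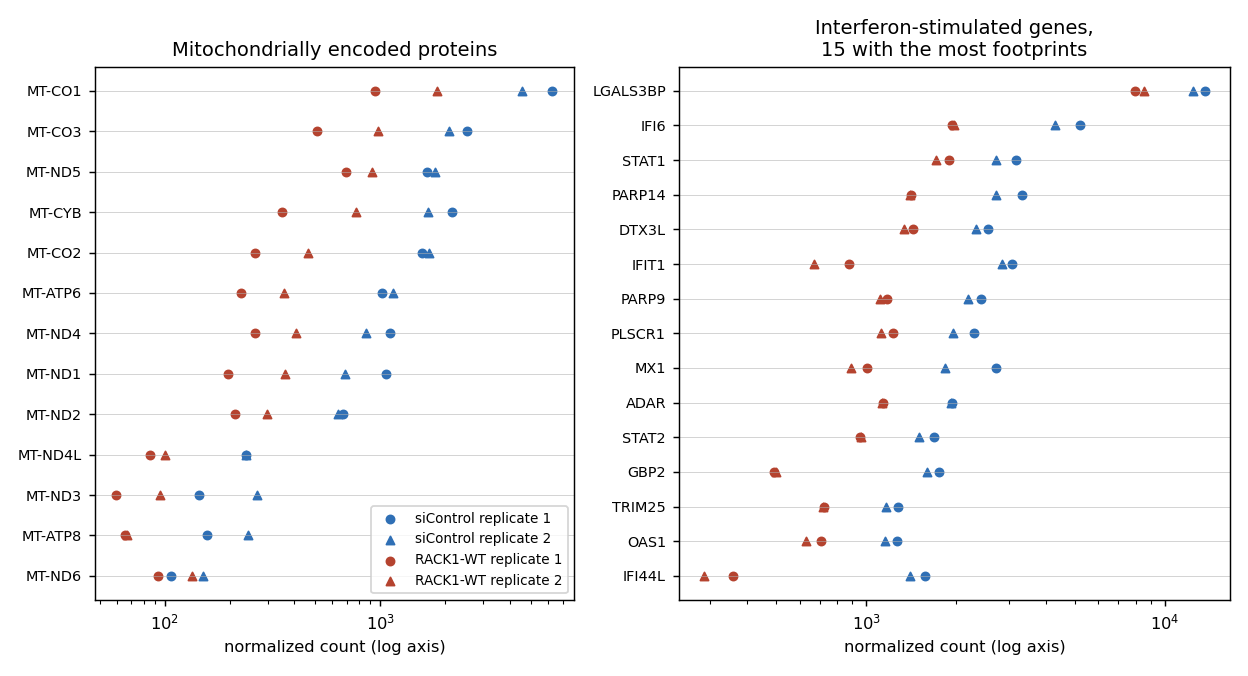
Normalized count in each library (log axis) of the 13 mitochondrially encoded proteins (left) and of the 15 interferon-stimulated genes with the most footprints (right). Red is RACK1-WT, blue is siControl, and circles and triangles are replicates 1 and 2. Every gene shown has both RACK1-WT libraries below both siControl libraries, except MT-ND6.

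Nuclear genes for the respiratory chain were higher in RACK1-WT at 28 of 53 and lower at 3 (58.5% called), with a median of 0.31. COX6C, a subunit of cytochrome c oxidase, had 1632 and 1512 normalized counts against 361 and 396 (2.06 ± 0.12), and UQCRB of complex III had 1202 and 1125 against 507 and 518 (1.18 ± 0.12). NDUFA10 of complex I went the other way, with 744 and 724 against 1104 and 1026 (−0.54 ± 0.11). The 31 calls of this list became 19 without siControl replicate 1 and 21 to 24 without any other library. Of 73 mitochondrial ribosomal proteins, 12 were higher and 6 lower with a median of 0.10, so that 24.7% were called beside 30.3% of all regions. These 18 calls became 7 and 9 without siControl replicate 1 or 2, and 3 and 5 without RACK1-WT replicate 1 or 2. MRPS25 had 254 and 261 against 122 and 132 (1.03 ± 0.21).

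Cytosolic ribosomal proteins moved in both directions, with 12 of 72 higher, 24 lower (50% called), a median of −0.09 and 47 alike within 0.5. Their 36 calls became 26 and 21 without siControl replicate 1 or 2, and 22 and 21 without RACK1-WT replicate 1 or 2. RPLP2, of the ribosomal stalk, had 2064 and 2139.6 normalized counts against 3995 and 4259.6 (−0.97 ± 0.08), and RPL13 had 2589.8 and 2954 against 4687 and 5001 (−0.80 ± 0.09). RPL14 had 2756 and 2492 against 1604 and 1815 (0.62 ± 0.10), and RPL7 had 3114 and 2698 against 1952 and 2038 (0.54 ± 0.09). Reads of these genes can also align to pseudogenes. Of 43 translation factors 10 were higher and 11 lower (48.8% called). The helicase gene EIF4A2 had 3115 and 2804 against 1403 and 1654 (0.96 ± 0.10). Of 23 genes for ribosome collision and quality control 4 were higher and 3 lower, and this share of 30.4% is that of all regions (30.3%). The 21 translation factor calls became 13 and 15 without siControl replicate 1 or 2 and 12 and 10 without RACK1-WT replicate 1 or 2, while the 7 quality control calls became 2 without siControl replicate 1 or RACK1-WT replicate 1 and 3 without either other library. RNF25, a ubiquitin ligase of that response, had 156 and 166 against 304 and 342 (95% interval of the log2 difference −1.37 to −0.64, adjusted p = 1.1e-06).

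Among stress genes, endoplasmic reticulum chaperones were higher at 13 of 24 and lower at 3, with a median of 0.24. Their 16 calls became 8 without siControl replicate 1 or RACK1-WT replicate 1, 10 without siControl replicate 2 and 11 without RACK1-WT replicate 2. ATF4 targets of the integrated stress response were higher at 7 of 34 and lower at 7. GDF15, a secreted stress cytokine, had 421 and 418 normalized counts against 62.7 and 27.9 (3.19 ± 0.50), whereas the mTORC1 inhibitor DDIT4 had 113 and 136 against 274 and 265 (−1.11 ± 0.21). Cytosolic heat shock proteins were higher at 5 of 20 and lower at 4, and the co-chaperone BAG3 had 471 and 419 against 988 and 905 (−1.09 ± 0.13). Of 24 p53 targets 5 were higher and 4 lower. Of these, CDKN1A, the cell cycle inhibitor p21, had 21.8 and 15.3 against 77.5 and 99 (−2.24 ± 0.41). NRF2 and antioxidant genes were higher at 9 of 28 and lower at 4, and NF-kappaB and inflammatory genes at 6 and 3 of 26. The shares called were 66.7% for endoplasmic reticulum chaperones, 41.2% for ATF4 targets, 45% for heat shock proteins and 37.5% for p53 targets. They were 46.4% for the NRF2 list and 34.6% for the NF-kappaB list, beside 30.3% of all regions. Without RACK1-WT replicate 2 the calls were 8 for the NRF2 list and 5 for the NF-kappaB list, and without either RACK1-WT library 3 for the p53 list.

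Extracellular matrix and integrin genes were higher at 16 of 49 and lower at 14. Their share called was 61.2%, beside 30.3% of all regions. It was 42.3% and 46.7% for the immediate early and argonaute lists given next. ITGB8, an integrin that activates TGF-beta, had 1920.1 and 1795 normalized counts against 201 and 226 (3.13 ± 0.13), and TIMP3, an inhibitor of metalloproteinases, had 776 and 793 against 71.8 and 83.6 (3.35 ± 0.19). TNC, the matrix protein tenascin C, had 186 and 175 against 672 and 637 (−1.86 ± 0.15). Immediate early and AP-1 genes were higher at 8 of 26 and lower at 3, with a median of 0.46, and the 11 calls became 6 and 8 without siControl replicate 1 or 2, and 6 and 5 without RACK1-WT replicate 1 or 2. Of 15 argonaute and small RNA genes 2 were higher and 5 lower, and the 7 calls became 4 without either siControl library and 2 without either RACK1-WT library. TNRC6A, which links argonaute to mRNA decay, had 183 and 165 against 613 and 571 (−1.77 ± 0.16), and AGO2 had 209.6 and 214 against 116 and 78.9 (95% interval 0.62 to 1.58, with the call lost without either RACK1-WT library, adjusted p = 0.067 and 0.071).

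In several metabolic and cell cycle lists the share called was near the 30.3% of all regions, at 28% for cholesterol synthesis and uptake, 34.7% for DNA replication, 34.2% for histones and 35% for mitosis. Lysosome and autophagy genes were higher at 11 of 35 and lower at 5 (45.7% called). GPNMB, a lysosomal glycoprotein, had 606 and 530.5 normalized counts against 83.2 and 75.8 (2.83 ± 0.20). Cholesterol synthesis and uptake genes were higher at 4 of 25 and lower at 3, and the sterol oxidase MSMO1 had 364 and 339.6 against 789.9 and 885 (−1.25 ± 0.13). Fatty acid synthesis genes were higher at 7 of 19 and lower at 4 (57.9% called), and glycolysis and hypoxia genes at 8 and 4 of 31 (38.7% called). Mitosis genes were higher at 12 of 40 and lower at 2, and their 14 calls became 6 and 10 without siControl replicate 1 or 2, and 5 and 7 without RACK1-WT replicate 1 or 2. DNA replication genes were higher at 9 of 49 and lower at 8, and replication-dependent histones at 9 and 4 of 38, and 1 histone was called without siControl replicate 1, 7 without siControl replicate 2 and 5 without either RACK1-WT library. DNA replication calls became 10 and 11 without siControl replicate 1 or 2, and 6 and 7 without RACK1-WT replicate 1 or 2. Fatty acid calls became 6 without siControl replicate 1 or RACK1-WT replicate 2, and glycolysis calls became 7 without RACK1-WT replicate 1. Of 15 genes of the mono-ADP-ribosylation cycle and the study's assays, 2 were higher and 3 lower (33.3% called), with 3 called without RACK1-WT replicate 1. Of these, AKT1 at −0.35 ± 0.18, the stress granule protein G3BP1 at −0.18 ± 0.09 and OARD1 at −0.14 ± 0.29 were not called. AKT1 was called with edgeR (adjusted p = 0.02). G3BP1 was alike within 0.5, but was called with the GC and length trend removed (DESeq2 adjusted p = 0.021).

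**Figure D4:**
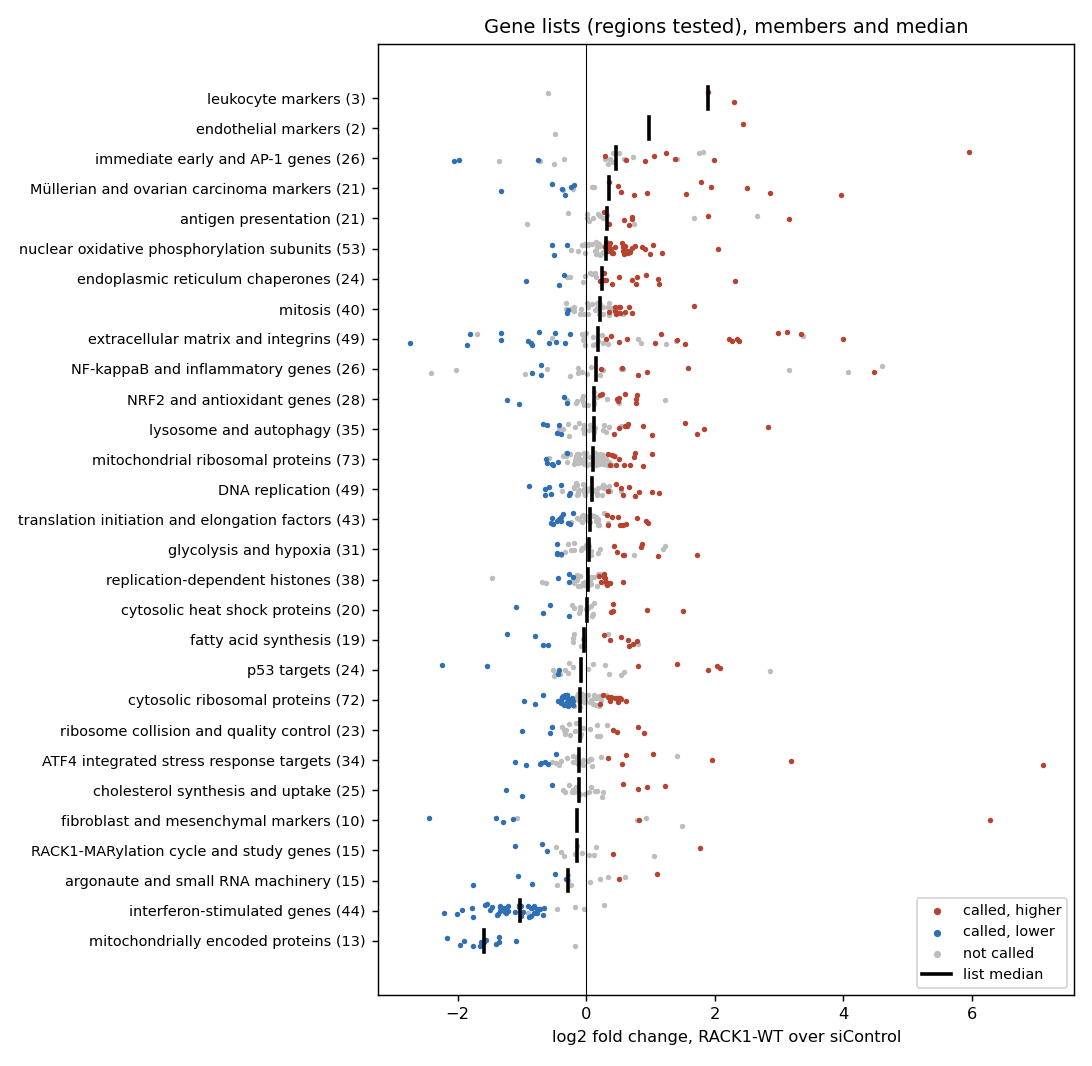
Difference of RACK1-WT from siControl (log2 fold change, x axis) for the tested members of 29 gene lists, with the number tested in brackets. Red points were called higher, blue points lower and grey points were not called, and the black tick is the list median, which is lowest for mitochondrially encoded proteins at −1.59.

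The RACK1-Mut and siTARG1 libraries hold the same pair of systems and share no library with the first comparison, but they also differ by the RACK1 mutation and by TARG1 depletion. DESeq2 called 4089 of 12321 regions there (33.2%), 2147 higher in RACK1-Mut (17.4%) and 1942 lower (15.8%). Of the 3801 regions called between RACK1-WT and siControl, 3775 were tested there and 3325 had the same sign (88.1%), against 64.1% of regions that were not called. The 2235 regions called in the same direction were 59.2% of the first set and 54.8% of the second, and 100 were called in opposite directions. KLK5 differed by 6.97, CA2 by 3.24 and IGFBP5 by −5.03 in these libraries. Interferon-stimulated genes were lower at 41 with a median of −1.22, mitochondrially encoded genes lower at 5 with a median of −0.86, and nuclear respiratory chain genes higher at 26 and lower at 3. Antigen presentation genes were higher at 1 and lower at 8 there, with a median of −0.24. Endoplasmic reticulum chaperones were higher at 7 and lower at 6 (median −0.0076), and cytosolic ribosomal proteins at 20 and 16 (0.04). DNA replication genes were higher at 5 and lower at 11 (−0.16), and mitosis genes at 19 and 3 (0.36). The system difference itself differed between the pairs at 1610 of the 12532 regions (12.8%, DESeq2 interaction over 8 libraries).

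Differences between RACK1-WT and siControl were not spread evenly over chromosome arms, a pattern noticed after the data were seen. Over 41 arms with at least 20 regions of mean count 100 or more, arm medians ran from −0.47 on 7q to 0.77 on 20p. On 20p 34 of 51 regions were higher and 1 lower, on 8q 76 of 133 were higher and 5 lower (median 0.55), and on 3p 101 of 184 were higher and 9 lower (0.47). On 7q 13 of 202 were higher and 110 lower, and on 16p 6 of 166 were higher and 73 lower (−0.37). The 4 pairs of single libraries gave 0.73 to 0.87 on 20p and −0.48 to −0.43 on 7q, whereas replicate arm medians stayed within −0.11 to 0.10. Medians of RACK1-Mut against siTARG1 were 0.68 on 20p, 0.54 on 8q, 0.55 on 3p and −0.44 on 7q. By contrast, RACK1-Mut differed from RACK1-WT by −0.05 to 0.03 over the arms, and siTARG1 from siControl by −0.10 to 0.13.

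**Figure D5:**
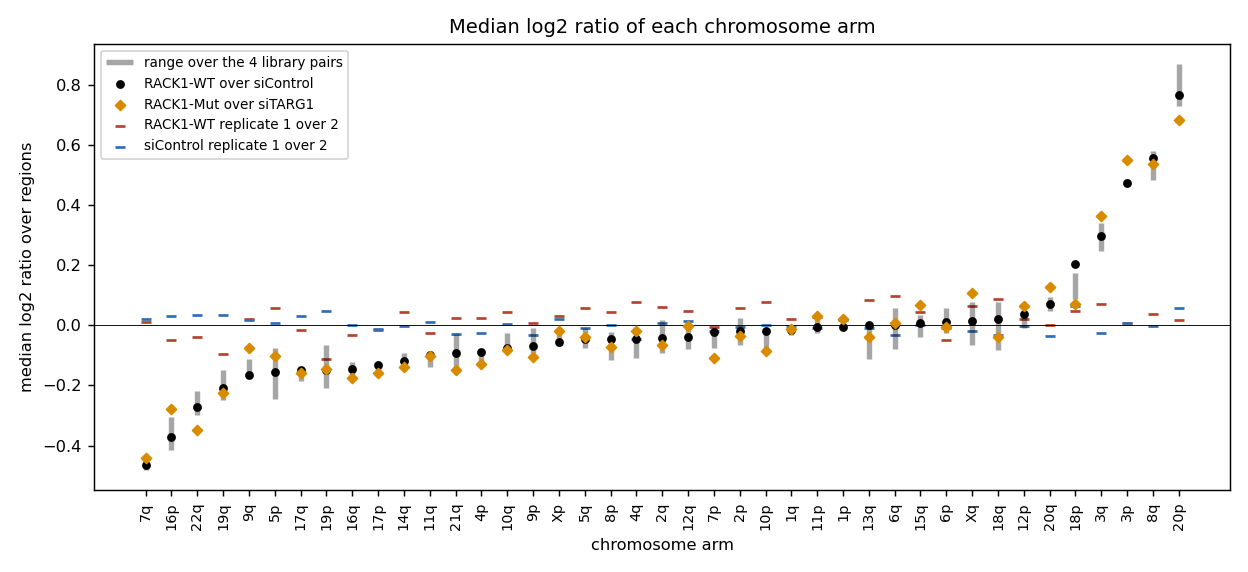
Median log2 ratio over the regions of each of 41 chromosome arms, for RACK1-WT over siControl (black points, with the range over the 4 library pairs as grey bars), RACK1-Mut over siTARG1 (diamonds) and replicate 1 over 2 (dashes). The arm 7q lies at −0.47 and 20p at 0.77, and 7 arms lie beyond 0.25, all with the same sign in the other libraries.

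The members of some lists were also set out by chromosome, after the shifts had been seen. Of all regions of mean count 100 or more, 46.7% on chromosome 3 and 42.4% on chromosome 8 were higher. By arm the share higher was 57.1% on 8q, 19% on 8p, 54.9% on 3p and 40.3% on 3q. Over all placed regions 19.3% were higher and 20.7% lower. The cytosolic ribosomal protein and respiratory chain genes on chromosome 8 all lie on 8q. Ribosomal protein genes on chromosomes 3 or 8 were higher at 8 of 11 and lower at none (median 0.45), while those elsewhere were higher at 4 of 61 and lower at 24 (median −0.14). Nuclear respiratory chain genes on chromosomes 3 or 8 were higher at 7 of 7, and those elsewhere at 21 of 46 with 3 lower. Mitochondrial ribosomal proteins on chromosomes 3 or 8 were higher at 5 of 6. Those elsewhere were higher at 7 of 67 and lower at 6 (median 0.0072). Translation factors on chromosomes 3 or 8 were higher at 5 of 7 and lower at 1, and those elsewhere higher at 5 of 36 and lower at 10. With each arm's median subtracted, the list medians were 0.37 for nuclear respiratory chain genes, −1.05 for interferon-stimulated genes and −0.05 for ribosomal proteins. Without the 7 shifted arms, 3014 of 10545 regions were called. Of the genes named above, COX6C, UQCRB, RPL7, CA2 and AGO2 lie on 8q. RPL14 and MRPS25 lie on 3p, EIF4A2 and MUC4 on 3q, and TNRC6A on 16p. All of these differed in the direction of their arm's median. PARP14 on 3q, EPHA3 on 3p, MSLN on 16p and TIMP3 on 22q differed against theirs. The part of each difference that follows its arm was not tested.

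The share of footprints on each part of the transcript was compared over libraries, where 2 against 2 cannot reach an exact p below 0.33. Coding sequences took 95.1% ± 0.09 (SD, n = 2) of footprints in RACK1-WT and 94.4% ± 0.72 in siControl (exact two-sided permutation test, p = 0.33), and 5′ UTRs 4.18% ± 0.05 and 4.15% ± 0.26 (exact p = 1). The 3′ UTR share was 0.666% and 0.72% in RACK1-WT and 1.11% and 1.76% in siControl (exact p = 0.33). It was 0.752% and 0.807% in RACK1-Mut and 1.54% and 1.87% in siTARG1.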

How the data were processed

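The deposited files hold the authors' whole-number footprint counts, made with Plastid on hg19 (GRCh37) and GENCODE 24, over the exons, UTRs and coding sequence of each region. Per the labels and methods, fragments of 28 to 34 nt were gel-cut, and reads were aligned with TopHat 2.1.1 after filtering with Bowtie 1.1.2. File headers record reads of 26 to 36 nt placed by a 5′ offset of 14 nt. The methods count from the other end of the read, a conflict left unresolved. Collapse of molecular identifiers is not stated. RPKM values deposited by the authors served only to work back to alignments per library. Symbols came from GENCODE 44 lifted to GRCh37: 12010 of the 12532 regions had 1 symbol, 370 several and 152 none.

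Coding counts were tested with DESeq2 1.42.0 in R 4.3.3 (Wald test, Benjamini-Hochberg adjusted p under 0.05, over all regions). Equivalence used a margin of 0.5. Alternatives were edgeR 4.0.16, other scalings, filters and features, a replicate block and each library left out. The scripts were tested on simulated data. Named genes are fixed study genes, the most abundant, the largest rises and falls, the smallest p and the leading called members of 29 hand-written lists. The members and lists were chosen with earlier results of these data known. Intervals cover the spread between libraries.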

Additional observations from a re-analysis of the deposited data

Results flagged for a closer look

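Among 93 named genes, 35 had a RACK1-WT against siControl difference that was not the same as the RACK1-Mut against siTARG1 difference (DESeq2 interaction over 8 libraries, adjusted p under 0.05). In 25 of them both differences had the same sign, and in 10 the signs were opposite. The second difference also carries the RACK1 mutation and TARG1 depletion, so what sets them apart cannot be told apart from those. All values below are on the log2 scale, the interaction being the first difference minus the second.

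Opposite signs were seen in 10 genes. Of these, CILP, MSMO1, HLA-C and CDH6 were called in both comparisons. OARD1 was not called in the first, and PHLDA1, ME1, PSMB9, KDM3A and SLPI were not called in the second. OARD1, the target of the siRNA in the siTARG1 libraries, differed by −0.14 in the first and 3.66 in the second, an interaction of −3.81. For CILP the interaction was −2.79, from −1.82 and 0.97. The interaction of PHLDA1 was −2.66, with differences of −1.98 and 0.66. MSMO1 differed by −1.25 in the first and 0.53 in the second, an interaction of −1.78. For ME1 the interaction was −1.48, from −1.23 and 0.25. The interaction of PSMB9 was 1.27, with differences of 0.72 and −0.56. HLA-C differed by 0.71 in the first and −0.24 in the second, an interaction of 0.95. For KDM3A the interaction was −0.75, from −0.46 and 0.28. The interaction of CDH6 was −0.75, with differences of −0.53 and 0.21. SLPI differed by −0.18 in the first and 0.25 in the second, an interaction of −0.44.

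The same sign with another size was seen in 25 genes. Among them FFAR4, CDKN1A, SQLE, BAG3 and RPA2 were called in the first comparison but not in the second. FFAR4 differed by −4.25 in the first and −0.72 in the second, an interaction of −3.55. For AHNAK2 the interaction was 3.17, from 5.33 and 2.16. The interaction of CDKN1A was −2.22, with differences of −2.24 and −0.03. VCAN differed by −2.75 in the first and −0.65 in the second, an interaction of −2.10. For CRYAB the interaction was 1.87, from 5.26 and 3.39. The interaction of MUC4 was 1.71, with differences of 3.96 and 2.25. PTGS1 differed by 5.91 in the first and 4.30 in the second, an interaction of 1.60. For ALOX15 the interaction was −1.43, from −3.27 and −1.85. The interaction of LRRC17 was −1.34, with differences of −3.44 and −2.11. GDF15 differed by 3.19 in the first and 1.93 in the second, an interaction of 1.22. For CEACAM1 the interaction was −1.22, from −3.47 and −2.25. The interaction of TNFAIP2 was 1.09, with differences of 1.58 and 0.49. ITGB8 differed by 3.13 in the first and 2.09 in the second, an interaction of 1.02. For DDIT4 the interaction was 0.98, from −1.11 and −2.09. The interaction of SQLE was 0.97, with differences of 1.22 and 0.24. CDC25B differed by 1.68 in the first and 0.85 in the second, an interaction of 0.83. For BAG3 the interaction was −0.79, from −1.09 and −0.30. The interaction of COX6C was 0.76, with differences of 2.06 and 1.29. SPON1 differed by 2.59 in the first and 3.30 in the second, an interaction of −0.71. For IFI44L the interaction was 0.70, from −2.21 and −2.92. The interaction of CA2 was −0.69, with differences of 2.56 and 3.24. RPA2 differed by −0.88 in the first and −0.21 in the second, an interaction of −0.68. For TXNRD1 the interaction was −0.52, from 0.80 and 1.31. The interaction of FN1 was −0.50, with differences of −2.45 and −1.95. SLIT2 differed by −1.85 in the first and −1.48 in the second, an interaction of −0.38.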

How the results depend on the processing

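The count of regions called between RACK1-WT and siControl (3801) became 5975 with edgeR, which called all 3801 in the same direction, 389 beyond a log2 difference of 1, 2371 with a replicate block and 1477 to 2302 with a library left out. The other scalings, filters and features stayed within 1.5 times. Between RACK1-Mut and siTARG1 the 4089 calls became 6216 with edgeR, 353 beyond 1, 2608 with the replicate block and 1628 to 2303 with a library left out. Same-numbered RACK1-WT and siControl libraries did not deviate together (correlation −0.0663 over 8891 regions), so the numbers were not taken as pairs. This was not examined for the RACK1-Mut and siTARG1 libraries or within either experiment. The 1375 regions alike within 0.5 became 6541 at a margin of 1 and 282 to 392 with a library left out. The 5′ UTR test called 1 region in every setting run. The 3′ UTR share difference of −0.745 points became 0.108 as a median over regions, and ran from −1.07 to −0.421 with a library left out. Removing the GC and length trend gave 4066 calls (1908 higher, 2158 lower). Of 930 values of named genes under the alternatives, 869 kept sign and call, 56 lost the call, 2 gained it and 3 changed sign. Those 3 were OARD1 at 0.33 without siControl replicate 1 (range with a library left out −0.49 to 0.33) and TMSB10 at 0.057 without siControl replicate 2 and at 0.01 without RACK1-WT replicate 1 (range −0.15 to 0.057). List medians changed sign beyond their spread for fibroblast markers (0.14 with arm medians subtracted, chosen after seeing the data), mitochondrial ribosomal proteins (−0.0023 without the GC and length trend), DNA replication (−0.019 without siControl replicate 2, range −0.019 to 0.16) and p53 targets (0.082 and 0.053 without siControl replicate 1 or 2, range −0.12 to 0.082). The cause of these changes was not tested. Depth limits the calls in part, since 2967 regions were called with libraries thinned to the same total, and 7456 regions were called neither alike nor different.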
